A study of Mus musculus with 2 samples.

Results

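The aminoacyl-tRNA synthetase genes of mouse CD8+ T cells are described across 2 culture media. The genes were chosen by symbol, as the cytosolic synthetases with the scaffold genes Aimp1 and Aimp2, and the mitochondrial synthetases, whose symbols end in 2. The methionyl enzymes were not included. All 36 symbols were found, among 54532 Ensembl gene identifiers, and all 36 averaged 100 or more counts over both libraries. They comprise 21 cytosolic and 15 mitochondrial members. Aimp2 ends in 2 but encodes a cytosolic scaffold, and was counted as cytosolic.

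The methionine-free library came from CD8+ T cells of the spleen of WT mice, cultured for 8 h in RPMI 1640 medium lacking methionine, and the complete-medium library from the same kind of cells kept for 8 h in RPMI 1640 with methionine. The labels call the donor animals ND mice, give no age, and do not say whether both cultures came from the same animals. Each medium has 1 library of bulk RNA, so the spread between cultures is unknown, and differences are given by size without p-values.

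Each synthetase joins an amino acid to its tRNA, the step that sets which amino acid a codon brings into a protein. Nuclear genes encode separate enzymes for the cytosol and for the mitochondrion, with exceptions such as glycine and lysine, where the products of Gars and Kars serve both compartments. When charging fails, uncharged tRNA activates the kinase GCN2, which raises translation of the transcription factor ATF4, and several cytosolic synthetase genes are among the known targets of ATF4. ATF4 binds, with a C/EBP family partner, a short composite site called the C/EBP-ATF response element.

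The promoters were read from RefSeq (GRCm38.p6) for the 27 members that matched by symbol, as 250 bases before to 50 bases after the annotated start. These 27 genes have 29 promoters in that set. Shares of the members are per gene, whereas the background shares are per promoter. The core of the response element, TGATGNAA on either strand, was found in 5 of these 27 genes (18.5%), against 3.97% of all 32851 promoters of the same length. All 5 were cytosolic, out of 14 cytosolic and 13 mitochondrial genes matched. They are shown because the genes that carry this core include both higher and lower members without methionine. Each line gives 30 bases on the strand of the gene, 5′ to 3′, with the core or its reverse complement in capitals. The Aars match shown lies at chr8:111033840-111033869, starting at base 10 of the transcript. A further Aars match, not shown, starts 112 bases upstream of the annotated start (chr8:111033719-111033748). The Yars match lies at chr4:129189895-129189924, the Tars match at chr15:11399655-11399684, the Iars match at chr13:49682126-49682155 and the Gars match at chr6:55037960-55037989.
Aars: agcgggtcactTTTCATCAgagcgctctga
Yars: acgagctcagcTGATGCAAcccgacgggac
Tars: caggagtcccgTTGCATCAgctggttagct
Iars: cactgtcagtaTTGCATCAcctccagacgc
Gars: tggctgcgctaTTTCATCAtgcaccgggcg

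The E-box CACGTG, the site of MYC-MAX dimers among others, was found on either strand in 5 of the 27 genes (18.5%), against 7.15% of all promoters. It reads the same on both strands. The genes were Aars, Farsb, Iars, Tars and Ears2. It is shown for Farsb (chr1:78488919-78488948, minus strand) and Ears2 (chr7:122067048-122067077, minus strand), which lay past 1.5-fold in opposite directions. Farsb was the only lower gene among the 5. Aars was also past 1.5-fold higher, Tars was 1.27-fold higher and Iars lay near 1. The NRF1 consensus site, which also reads the same on both strands, was in 0 of the 27, against 0.971% of all promoters. A match is a run of letters and no evidence of binding.
Farsb: ttagacaggcatCACGTGagacagcccaag
Ears2: cgcgaaggagccCACGTGtgtgtttctagt

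The methionine-free library held 19647681 counts and the complete-medium library 14646527 counts. Counts were scaled by TMM, with factors of 0.997 without methionine and 1.003 in complete medium. A level in CPM is the count of a gene in each 1000000 scaled counts, and a fold is a ratio of scaled counts, methionine-free over complete medium. The range after a fold is an exact 95% interval for counting error alone. The T cell genes Cd3d, Cd3e and Cd3g and the CD8 genes Cd8a and Cd8b1 were all detected. Together they summed to 1322 CPM without methionine and 1505 CPM in complete medium. The summed levels of the B cell, myeloid, NK cell, platelet and erythroid markers lay between 0 and 3.83 CPM without methionine and between 0 and 5.31 CPM in complete medium. Cd4 stood at 0.561 CPM without methionine and 0.613 CPM in complete medium. In bulk RNA, fewer cells of a type and less RNA per cell cannot be told apart. The labels name 2 library kits, for whole RNA and for mRNA, and do not assign them to the libraries; the part of the kit in the differences was not tested.

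Synthetase transcripts together held nearly the same share of the scaled counts in both media, while single genes differed in both directions, none of them by 2-fold. These levels are shares of each library and do not measure RNA per cell. The 21 cytosolic members summed to 7518 CPM without methionine and 7384 CPM in complete medium. The 15 mitochondrial members summed to 632 CPM without methionine and 618 CPM in complete medium. No member was 2-fold higher or 2-fold lower, whereas of the 13041 genes averaging 10 or more counts, called expressed genes below, 5.89% were 2-fold or more higher and 9.49% lower by that measure. Among genes averaging 100 or more counts these shares were 2.79% higher and 6.05% lower.

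At 1.5-fold, 1 of 21 cytosolic members was higher without methionine and 2 were lower. Of the 15 mitochondrial members, 1 was higher and 1 lower. Of the expressed genes, 15.7% were higher and 18.1% lower by this measure. Among genes averaging 100 or more counts, as every member did, the shares were 12.2% higher and 13.7% lower. At 1.2-fold, 7 cytosolic members were higher and 6 lower, and 3 mitochondrial members were higher and 3 lower. At 1.2-fold, 33.9% of the expressed genes were higher and 31.2% lower, and among those averaging 100 or more counts 32.5% were higher and 27.1% lower. The members' counts therefore lie near or under the background, and are not by themselves a result about the synthetases.

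The median log2 difference, methionine-free minus complete medium, was -0.0034 over the cytosolic members and 0.02 over the mitochondrial members, against 0.04 over the expressed genes. The middle 50% of cytosolic members lay between -0.31 and 0.35, and that of mitochondrial members between -0.16 and 0.16. Over genes averaging 100 or more counts it ran from -0.30 to 0.36, and over those averaging 1000 or more, as every cytosolic member did, from -0.23 to 0.34. Cytosolic members thus spread a little wider than genes averaging 1000 or more counts, and about as wide as those averaging 100 or more. The compartments did not stand apart by their medians.

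**Figure D1:**
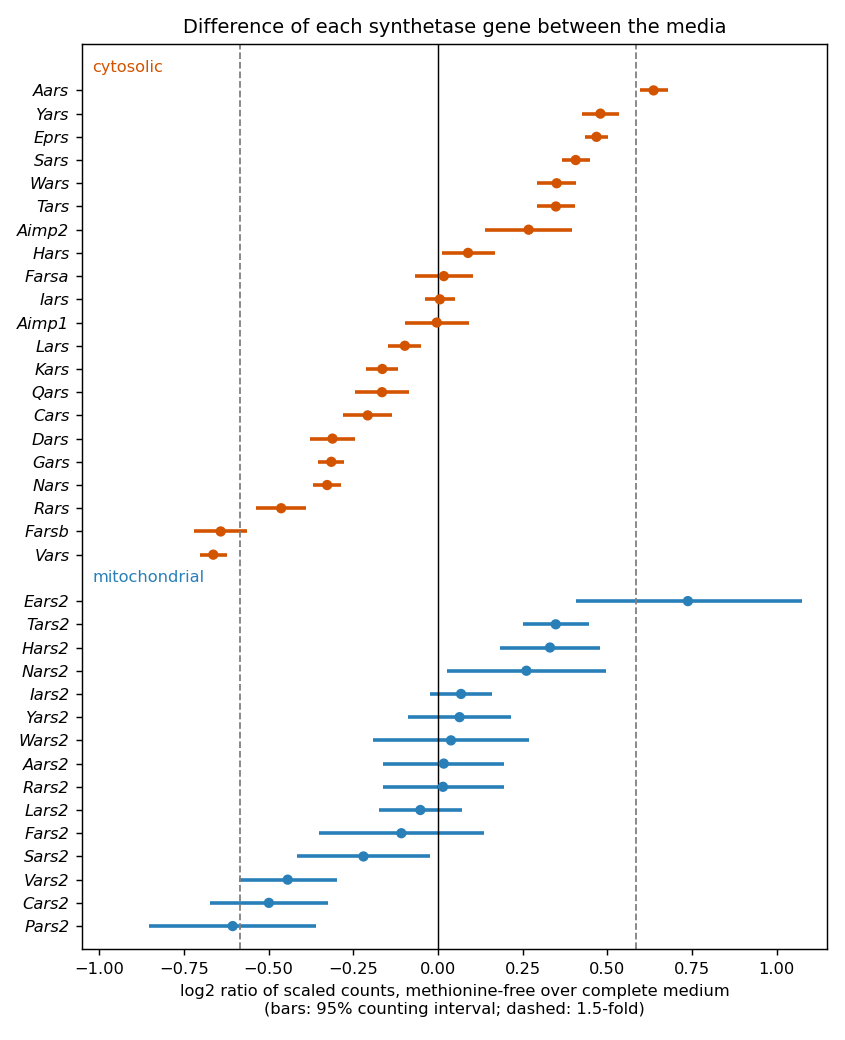
Log2 ratio of scaled counts, methionine-free over complete medium, for each of the 21 cytosolic (orange) and 15 mitochondrial (blue) members, with 1 library per medium. Points are the ratios, bars the 95% counting intervals and dashed lines 1.5-fold; Aars and Ears2 lie above the upper line, Farsb, Vars and Pars2 below the lower one, and no member reaches 2-fold.

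Levels per length separated the compartments in both libraries. Per kb of merged exons, the median cytosolic member stood at 65.1 scaled CPM per kb without methionine and at 62.2 in complete medium. The median mitochondrial member stood at 6.52 without methionine and at 6.44 in complete medium, so the ratio of the medians was 9.99 without methionine and 9.65 in complete medium. These ranges per kb did not overlap in either library, whereas the ranges of the counts did. Without methionine the lowest cytosolic count was 1298 and the highest mitochondrial count 2374. In complete medium they were 808 and 1697. The lowest cytosolic gene was Aimp1, a scaffold gene, at 19.5 scaled CPM per kb without methionine and 19.6 in complete medium. The highest mitochondrial gene was Tars2, the mitochondrial threonine enzyme gene, at 17.1 without methionine and 13.5 in complete medium. With the length of the longest principal coding transcript in place of merged exons, an alternative chosen after seeing the data, the median level without methionine was 97.8 scaled CPM per kb for cytosolic and 12.7 for mitochondrial members. The ratio of the medians was then 7.72 without methionine and 7.91 in complete medium. The ranges still did not overlap, but nearly met: without methionine Qars was lowest of the cytosolic genes at 50.9 and Tars2 highest of the mitochondrial genes at 49.5.

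Gars, the glycine enzyme of both compartments, had the highest level per length of all members, at 190.1 scaled CPM per kb without methionine and 236 in complete medium. Without methionine Sars came next at 131 and Nars after it at 113. In complete medium the order after Gars was Nars at 142, Vars at 131 and Kars at 104. Gars also came first with principal transcript lengths, but the order after it changed. Without methionine it was then Kars at 206, Eprs at 193 and Sars at 188, and in complete medium Kars at 230.3, Nars at 226 and Vars at 178. At the low end of the mitochondrial enzymes, Ears2 stood at 2.45 without methionine and 1.47 in complete medium. With principal transcript lengths the lowest was Wars2 at 4.28 without methionine, and Ears2 at 3.69 in complete medium. Neighbours in these orders rest on 1 library each, and differences between cultures could not be measured.

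**Figure D2:**
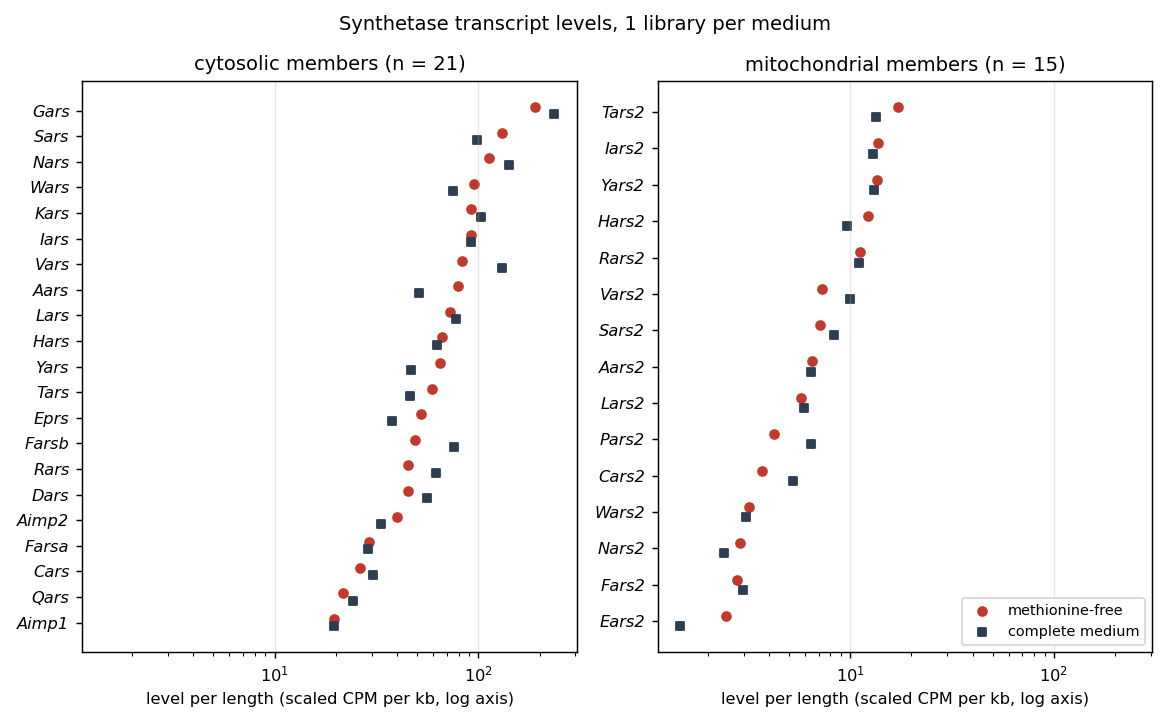
Level of each member per length, in scaled CPM per kb of merged exons on a log axis, in the methionine-free library (red circles) and the complete-medium library (dark squares). The cytosolic genes run from Aimp1 at 19.5 to Gars at 190.1 without methionine, and the mitochondrial genes from Ears2 at 2.45 to Tars2 at 17.1.

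Of the cytosolic enzymes, the one furthest above complete medium was Aars, which charges alanine tRNA (ENSMUSG00000031960, chromosome 8, 111033144 to 111057664, plus strand). Aars had 14502 counts without methionine and 6991 in complete medium, or 740.1 CPM without methionine and 476 CPM in complete medium, a ratio of 1.55 (1.51 to 1.6). With the scaling recomputed over genes averaging 1000 or more counts, an alternative chosen after seeing the data, Aars lay under 1.5-fold. The small gene Exosc6, which encodes a subunit of the RNA exosome, lies on the same strand within the last 1326 bases of Aars (111056339 to 111057664) and was listed at 0 counts in both libraries. Whether reads from Exosc6 were counted to Aars was not tested.

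A further 5 synthetase genes lay between 1.27-fold and 1.39-fold higher. Yars, the tyrosine enzyme, had 7586 counts without methionine and 4077 in complete medium, a ratio of 1.39 (1.34 to 1.45). Eprs encodes a double enzyme that charges both glutamate and proline tRNAs, and had 18523 counts without methionine and 10036 in complete medium, a ratio of 1.38 (1.35 to 1.42). Sars, which charges serine tRNA and the tRNA of selenocysteine, had 13151 counts without methionine and 7435 in complete medium, a ratio of 1.33 (1.29 to 1.36). Wars, the tryptophan enzyme, known as an interferon-gamma-inducible gene, had 6455 counts without methionine and 3794 in complete medium, a ratio of 1.28 (1.22 to 1.33). Tars, the threonine enzyme, had 6828 counts without methionine and 4020 in complete medium, a ratio of 1.27 (1.22 to 1.32). For these 5 genes and Aars the counting interval lay above 1.

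On the other side, Vars, which charges valine tRNA (ENSMUSG00000007029, chromosome 17, 35000987 to 35016322, plus strand), had 9101 counts without methionine and 10801 in complete medium, or 464 CPM without methionine and 735 CPM in complete medium. It was 1.58-fold lower (1.54 to 1.63), the lowest ratio of the cytosolic members. Phenylalanine tRNA is charged in the cytosol by an enzyme of paired alpha and beta subunits, encoded by Farsa and Farsb. The beta subunit gene Farsb (ENSMUSG00000026245, chromosome 1, 78417975 to 78488897, minus strand) had 2516 counts without methionine and 2941 in complete medium, 1.56-fold lower (1.48 to 1.65). Its exons overlap 248 bases of Sgpp2 on the opposite strand, which had 2 counts without methionine and 5 in complete medium. The alpha subunit gene Farsa had 2589 counts without methionine and 1917 in complete medium, a ratio of 1.01 (0.954 to 1.07). The subunit genes of this enzyme thus differed from each other: without methionine Farsb stood at 128 CPM and Farsa at 132 CPM, and in complete medium Farsb stood at 200.3 CPM and Farsa at 131 CPM.

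Rars, the arginine enzyme, was 1.38-fold lower (1.31 to 1.45), with 2855 counts without methionine and 2949 in complete medium. Nars, the asparagine enzyme, was 1.25-fold lower (1.22 to 1.29), with 9670 counts without methionine and 9091 in complete medium. Gars was 1.24-fold lower (1.21 to 1.28), with 11615 counts without methionine and 10827 in complete medium, and Dars, the aspartate enzyme, also 1.24-fold lower (1.19 to 1.30), with 3839 counts without methionine and 3570 in complete medium. The remaining cytosolic enzymes lay within 1.2-fold of 1. Cars (cysteine) was at 174 CPM without methionine and 201 CPM in complete medium, Kars (lysine) at 413 CPM without methionine and 462 CPM in complete medium, Qars (glutamine) at 143 CPM without methionine and 160 CPM in complete medium, and Lars (leucine) at 389 CPM without methionine and 417 CPM in complete medium. Hars (histidine) was at 163 CPM without methionine and 154 CPM in complete medium. For Cars, Kars, Qars and Lars the counting interval of the ratio lay below 1, and for Hars it lay above 1 (1.01 to 1.12). Iars, the isoleucine enzyme, was at 486 CPM without methionine and 484 CPM in complete medium, with an interval of 0.974 to 1.04 for the ratio.

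Several cytosolic enzymes sit in a large multi-synthetase complex held together by scaffold proteins. Of its 9 members studied here, none was past 1.5-fold. At 1.2-fold 2 were higher and 2 lower, with a median log2 difference of -0.10, where 33.9% of the expressed genes were higher and 31.2% lower. Those higher were Eprs and the scaffold gene Aimp2, at 66.2 CPM without methionine and 55 CPM in complete medium, a ratio of 1.2 (1.1 to 1.32); with scaling by library total Aimp2 lay just under 1.2-fold. The exons of Aimp2 overlap 487 bases of Eif2ak1 on the opposite strand. Eif2ak1 had 1213 counts without methionine and 866 in complete medium, and whether its reads were counted to Aimp2 was not tested. The 2 lower members were Rars and Dars. The scaffold gene Aimp1 stood at 109 CPM in both libraries, with 2139 counts without methionine and 1607 in complete medium, a ratio of 0.998 (0.935 to 1.07). Among the 12 cytosolic members outside the complex, 1 was past 1.5-fold upward and 2 downward, and the median was 0.05. Members of the complex therefore lay on both sides at 1.2-fold, and the counts at 1.5-fold are not by themselves a result about the complex.

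Synthetases fall into a pair of unrelated catalytic folds, class I and class II. The 8 cytosolic class I genes had a median log2 difference of -0.13 and the 10 class II genes one of -0.07. Each class held genes on both sides, from -0.66 (Vars) to 0.48 (Yars) in class I and from -0.64 (Farsb) to 0.64 (Aars) in class II.

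The cytosolic synthetase genes known as ATF4 targets went both ways. Of 11 such genes, 6 were higher by 1.2-fold or more without methionine, namely Aars, Yars, Eprs, Sars, Wars and Tars. Gars and Nars were lower by that measure. Their median log2 difference was 0.35. Of the 8 other cytosolic synthetase genes, none was higher by that measure and 4 were lower, Dars, Farsb, Rars and Vars; their median was -0.24. Of the expressed genes averaging 100 or more counts, 32.5% were higher and 27.1% lower by the same measure. The 11 targets summed to 5558 CPM without methionine and 4933 CPM in complete medium, and the 8 others to 1785 CPM without methionine and 2286 CPM in complete medium. Without Yars, whose exons overlap 30 bases of another counted gene, the median of the targets was 0.18. The list was written with earlier results of these data known, so its direction is a description and no test.

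Within the target list, a response element core in the promoter window did not go with 1 direction. Aars, Yars and Tars, with log2 differences of 0.64, 0.48 and 0.35, carry it, and so do Iars at 0.01 and Gars at -0.31. Eprs at 0.47 and Sars at 0.41 have no match in this window, which says only that these letters are not in it. The promoters of Wars, Cars, Lars and Nars were not analysed here.

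**Figure D3:**
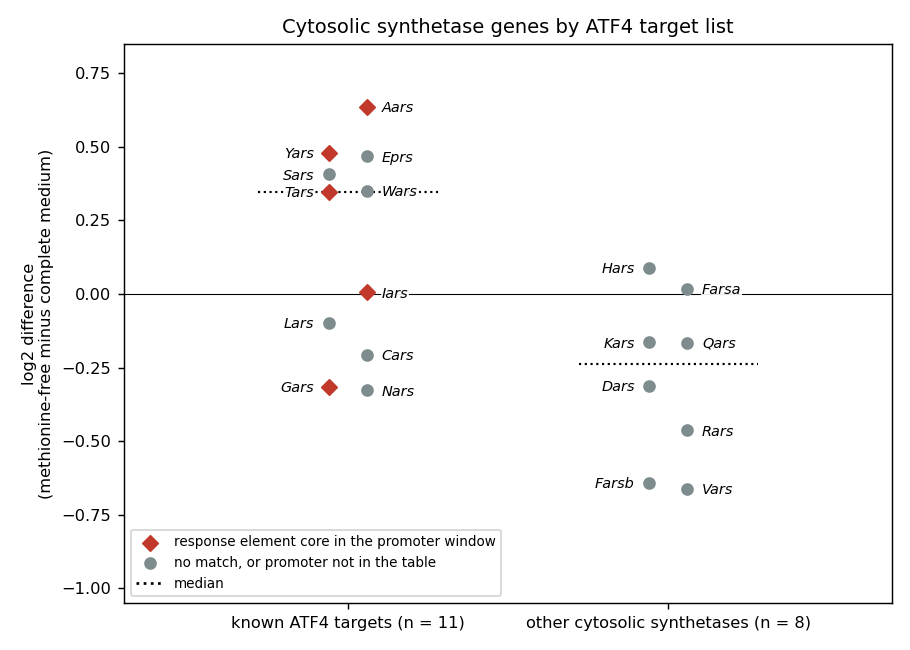
Log2 difference, methionine-free minus complete medium, of the 11 cytosolic synthetase genes known as ATF4 targets and the 8 others, each point 1 gene and dotted lines the medians (0.35 and -0.24). Red diamonds mark the 5 genes with the response element core in the promoter window, which run from -0.31 (Gars) to 0.64 (Aars). Grey circles are genes with no match or whose promoters were not analysed.

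Among the mitochondrial enzymes, Ears2 and Pars2 lay furthest apart. Ears2 charges the mitochondrial glutamate tRNA and also loads glutamate on the glutamine tRNA (ENSMUSG00000030871, chromosome 7, 122037213 to 122067263, minus strand). It had 247 counts without methionine and 111 in complete medium, or 12.6 CPM without methionine and 7.56 CPM in complete medium, a ratio of 1.67 (1.33 to 2.11). Its exons overlap 89 bases of Ubfd1 on the opposite strand, which had 2270 counts without methionine and 1191 in complete medium, and the sources used here do not say whether counting was stranded. Pars2, the mitochondrial proline enzyme (ENSMUSG00000043572, chromosome 4, 106651069 to 106655282, plus strand), had 256 counts without methionine and 292 in complete medium, 1.52-fold lower (1.28 to 1.81). In the cytosol the glutamate and proline activities are fused in Eprs, which was 1.38-fold higher, whereas their mitochondrial counterparts differed in opposite directions.

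Tars2 had 2328 counts without methionine and 1371 in complete medium, a ratio of 1.27 (1.19 to 1.36). Hars2, the histidine enzyme, stood at 52.2 CPM without methionine and 41.5 CPM in complete medium, a ratio of 1.26 (1.14 to 1.39); its exons overlap 195 bases of Hars, which starts next to it on the opposite strand. Cars2, the cysteine enzyme, was 1.41-fold lower (1.25 to 1.6), with 524 counts without methionine and 555 in complete medium. Its exons overlap 422 bases of Naxd on the opposite strand, which had 462 counts without methionine and 436 in complete medium. Whether reads from Naxd were counted to Cars2 was not tested. Vars2, the valine enzyme, was 1.36-fold lower (1.23 to 1.5), with 782 counts without methionine and 797 in complete medium.

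The other mitochondrial enzymes lay within 1.2-fold of 1. Nars2 (asparagine) was at 20.2 CPM without methionine and 16.8 CPM in complete medium, with an interval of 1.02 to 1.41 for the ratio, which lay just short of 1.2-fold. Sars2 (serine) was at 23.7 CPM without methionine and 27.6 CPM in complete medium, a ratio of 0.859 (0.750 to 0.984). For Aars2, Rars2, Yars2, Wars2, Iars2, Lars2 and Fars2 the interval held 1. Without methionine Aars2 (alanine) was at 31.1 CPM and Rars2 (arginine) at 31.0 CPM, and both were at 30.7 CPM in complete medium. Yars2 (tyrosine) was at 42.9 CPM without methionine and 41.1 CPM in complete medium, Wars2 (tryptophan) at 18.9 CPM without methionine and 18.4 CPM in complete medium, Iars2 (isoleucine) at 121 CPM without methionine and 116 CPM in complete medium, Lars2 (leucine) at 63.6 CPM without methionine and 65.9 CPM in complete medium, and Fars2 (phenylalanine) at 15.9 CPM without methionine and 17.2 CPM in complete medium. Of the exons of Iars2, 2034 bases overlap Rab3gap2 on the opposite strand.

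Leaving aside the fused Eprs, both a cytosolic and a mitochondrial gene were measured for 13 amino acids, which gives 14 pairs because Farsa and Farsb were each set against Fars2. The ratio of the cytosolic to the mitochondrial gene within a library needs no scaling between libraries. Without methionine this ratio was higher, with a counting interval above 1, for 5 pairs (alanine, cysteine, serine, tryptophan and tyrosine). It was lower, with an interval below 1, for 5 pairs (asparagine, arginine, histidine, valine, and Farsb for phenylalanine). The interval held 1 for the other 4 pairs (isoleucine, leucine, threonine, and Farsa for phenylalanine). So the ratio had no shared direction across the pairs. The genes of a pair differed from complete medium in the same direction in 10 of the 14 pairs, though many of these differences lay within counting error. In 6 pairs both genes had an interval that left out 1: in 4 of them the direction was the same (cysteine, histidine, threonine and valine) and in 2 it was opposite (asparagine and serine). Unlike the pair ratio, these intervals depend on the scaling, and the lower bound lay near 1 for Hars (1.01) and Nars2 (1.02). The exons of Hars and Hars2 also overlap by 195 bases.

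Of these 14 pairs, the genes differed most from each other for serine, alanine and asparagine, the 3 pairs past 1.5-fold. The level of Sars per length was 18.3 times that of Sars2 without methionine and 11.8 times in complete medium, a change in the ratio of 1.54-fold (1.34 to 1.77). That of Aars was 12.2 times that of Aars2 without methionine and 7.96 times in complete medium, a change of 1.54-fold (1.35 to 1.74). That of Nars was 39.2 times that of Nars2 without methionine and 58.9 times in complete medium, 1.5-fold lower (1.28 to 1.77). By contrast Tars and Tars2 differed by the same factor. Tars stood at 3.45 times Tars2 without methionine and 3.44 times in complete medium, with an interval of 0.925 to 1.08 for the change in the ratio. With principal transcript lengths Tars stood at 1.76 times Tars2 in each library; the choice of length leaves the change in a ratio as it is. Vars and Vars2 were both lower without methionine, with log2 differences of -0.66 and -0.44. Eprs and Pars2 lay further apart than any of the 14 pairs: the ratio of Eprs to Pars2 was 2.11-fold higher without methionine (1.77 to 2.5), and that of Eprs to Ears2 was 1.21-fold lower (0.959 to 1.52), an interval that held 1.

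**Figure D4:**
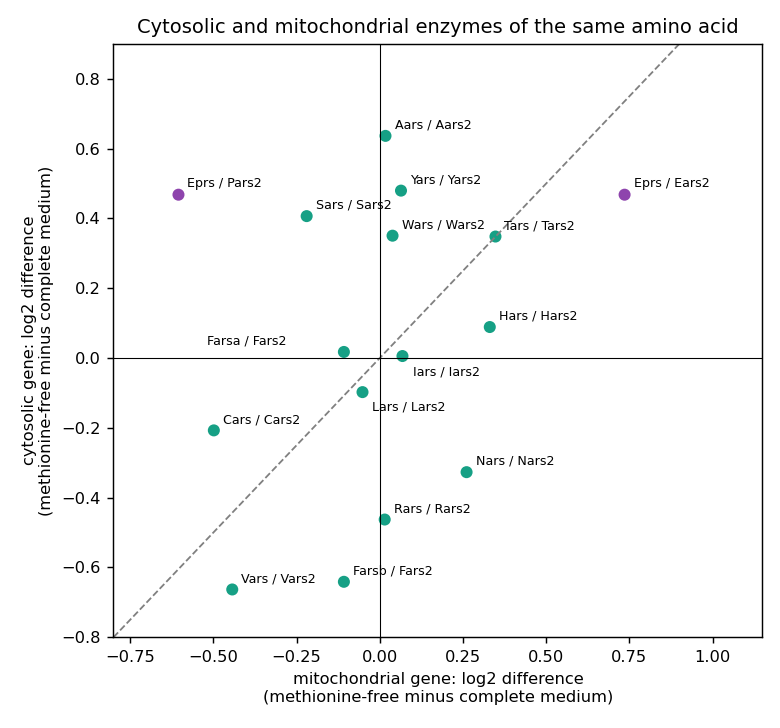
Log2 difference, methionine-free minus complete medium, of each cytosolic gene (vertical axis) against that of the mitochondrial gene for the same amino acid (horizontal axis); purple points pair Eprs with Ears2 and with Pars2. The dashed line marks equal differences, on which Tars / Tars2 lies at 0.35 for both genes, while Sars / Sars2 (0.41 and -0.22) and Nars / Nars2 (-0.33 and 0.26) lie away from it.

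Other genes that make, process, export and correct tRNAs were looked at from a separate list of 36, of which 35 were found. At 1.5-fold, 7 of them were higher without methionine and 5 lower, and the median log2 difference was 0.16. Xpot, the tRNA exporter of the nucleus and a known ATF4 target, had 10665 counts without methionine and 5113 in complete medium, a ratio of 1.56 (1.51 to 1.62). Gatb, Gatc and Qrsl1 encode the amidotransferase that turns the glutamate loaded by Ears2 into glutamine on the mitochondrial tRNA. Their ratios were 1.54 (1.31 to 1.81), 1.30 (1.14 to 1.49) and 1.19 (1.02 to 1.39), beside 1.67 for Ears2. The third scaffold gene of the multi-synthetase complex, Eef1e1, was at 136 CPM without methionine and 108 CPM in complete medium, a ratio of 1.26 (1.18 to 1.34).

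Also past 1.5-fold upward were Rpp38 (1.6-fold), of ribonuclease P; Prorsd1 (1.58-fold), of the prolyl-tRNA editing family; Trmt10c (1.56-fold), of the mitochondrial tRNA-processing enzyme; and Ptrh2 (1.5-fold), a peptidyl-tRNA hydrolase gene. Those lower were Rpp25, with 7 counts without methionine and 46 in complete medium, a ratio of 0.114 (0.0434 to 0.254), and Aarsd1 with 27 counts without methionine and 35 in complete medium. Tsen15 and Tsen34, of tRNA splicing, were 1.63-fold and 1.51-fold lower, and Hsd17b10, a partner of Trmt10c, was 1.52-fold lower. Trmt10c and Hsd17b10, which act in the same mitochondrial enzyme, thus lay on opposite sides. A list of 20 genes covered RNA polymerase III, which transcribes tRNA genes, its initiation factors and its repressor. Of these, 3 were past 1.5-fold upward, Polr3d (1.97-fold), Gtf3c6 (1.89-fold) and Bdp1 (1.74-fold). None was past 1.5-fold downward, and the median was 0.17. The shares of expressed genes past 1.5-fold, 15.7% upward and 18.1% downward, are the background for these counts as well.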

How the data were processed

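RNA of splenic CD8+ T cells was measured in bulk, with 1 library for each medium. The deposited table gives raw counts per Ensembl gene, unscaled. The submitters' processing notes name the build mm10. No aligner, counter or annotation, and no use of strand, is stated in the sources used here. Columns were matched to samples by their names. Symbols, coordinates and exons came from GENCODE M21 (GRCm38, the assembly of mm10), which matched 54495 of 54532 identifiers.

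Counts were scaled by TMM over all genes (edgeR 4.0.16, R 4.3.3). Log2 differences used a prior of 0.5 counts, in proportion to depth, and were read over the 13041 genes averaging 10 or more counts. Folds used no prior count. Their 95% intervals are Clopper-Pearson intervals of the 2 counts, and those of pair ratios exact conditional odds ratio intervals (scipy 1.17.1); both cover counting error only. One count was worth 0.0510 CPM without methionine and 0.0681 CPM in complete medium. With 1 library per medium, genes were called by size alone. The scaling, folds and fold intervals were also run on simulated libraries drawn with counting error alone. Those hold no spread between cultures, so they cannot show how the steps behave under it.

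The members and lists were chosen with earlier results of these data known. Every member is named; of the tRNA handling and RNA polymerase III lists, those past 1.5-fold are, except 1 gene that is not reported here. Gatc, Qrsl1, Eef1e1, Exosc6, Ubfd1, Sgpp2, Rab3gap2, Eif2ak1 and Naxd were named after their values were seen. Alternatives covered scaling, prior count, count minimum, overlapping genes and the grouping of members.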

Additional observations from a re-analysis of the deposited data

How the results depend on the processing

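Scaling by library total, by DESeq2 1.42.0 size factors or by upper quartile over all genes, and a prior count of 2, left all 36 members within their counting intervals and the counts at 1.5-fold as reported; scaling shifted members by between -0.01 and 0.01 on the log2 scale. The counts at 1.5-fold were also as reported with no minimum count, over genes averaging 100 or more counts, without Gars and Kars, and with Aimp2 grouped by its symbol ending. The medians near 0 changed sign in places. With the scaling recomputed over genes averaging 100 or more counts, the cytosolic median was -0.05 and the mitochondrial one -0.03. The cytosolic median was 0.0083 by upper quartile, 0.0059 without Gars and Kars, and -0.05 by symbol ending. At 1.2-fold, where alternatives were added after seeing the data, scaling moved the counts by 1: 6 cytosolic members were higher by library total (Aimp2 leaves), and 4 mitochondrial members by upper quartile (Nars2 enters). Without overlapping members 1 mitochondrial member was higher by 1.2-fold in place of 3. With principal transcript lengths the median level without methionine was 97.8 scaled CPM per kb for cytosolic and 12.7 for mitochondrial members. Without the 11 members whose exons overlap another counted gene, 1 cytosolic member was at least 1.5-fold lower in place of 2 (Farsb leaves), 0 mitochondrial members were higher in place of 1 (Ears2 leaves), and the cytosolic median was -0.13. Without Aimp1 and Aimp2 that median was -0.10. With the scaling recomputed over genes averaging 1000 or more counts alone, an alternative chosen after seeing the data, 0 cytosolic members were at least 1.5-fold higher in place of 1, since Aars then lay under that mark.

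No paired analysis was possible because there is 1 library per medium, and leaving out a library would leave no comparison. Depth limits the mitochondrial members most: Ears2, with 111 counts in complete medium, had the widest interval, 1.33 to 2.11.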
